A study of Laccaria bicolor with 20 samples.

Results

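LbH12 is a hydrophobin gene of the ectomycorrhizal basidiomycete Laccaria bicolor, a soil fungus that lives in symbiosis with tree roots. It is 1 of the 23130 gene models listed in every library and carries the JGI protein number JGI.241509, which the RefSeq table of the fungus pairs with the symbol LbH12. The gene was chosen by its measured level, which in mycelium with surplus ammonium was known to stand above that in control medium and the other media. Its levels in the 7 media are therefore given as a description, without a test against +N or control. P-values of LbH12 among the other media appear only with the checks of the processing, and no call is drawn from them.

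Hydrophobins are small secreted proteins of filamentous fungi with a conserved pattern of cysteines. They assemble at the surface between water and air into films with one water-repellent side, lower the surface tension that a hypha has to break through to grow into air, and coat aerial hyphae, spores and fruiting bodies. In ectomycorrhizal fungi they are also known from the hyphae that wrap the root. A fungus usually carries a family of such genes, whose members are used at different stages or places in the colony.

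The 20 libraries came from free-living mycelium of strain S238N, grown in the dark at 25 °C on cellophane over agar plates, pre-cultured on control modified Melin Norkrans (MMN) medium and then moved to fresh plates of 1 of 7 media. Medium +N (n = 3) held 25 mM of an added ammonium chloride salt, and medium −N (n = 3) lacked the ammonium salts, with phosphate made up by KH2PO4. Glucose was at 2% in +C (n = 3) and at 0.02% in −C (n = 3). Medium +P (n = 2) held an added 25 mM KH2PO4, and −P (n = 3) lacked the phosphate salts, with ammonium made up by the chloride salt. The control medium (n = 3) held 0.5% glucose, 1.89 mM diammonium phosphate and 3.67 mM KH2PO4. The recipe shared by all media includes 0.5% malt extract and 1% casein hydrolysate, which also carry carbon and nitrogen, so that no medium was free of either element, and −N lacked only the ammonium salts. Chloride was added along with ammonium in +N, and these cannot be told apart.

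Total counts per library lay between 9.47 and 33.1 M reads. In a library of that size a floor of 3 reads, below which a gene at 0 reads cannot be told from a low one, corresponds to between 0.0993 and 0.298 CPM (counts per M reads after scaling). Intervals given below for single libraries or summed reads are 95% intervals and cover counting error only. All libraries are from RNA of whole colonies, in which fewer hyphae that express a gene and less RNA of it per hypha cannot be told apart.

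In mycelium with surplus ammonium, LbH12 had 322 reads over 3 libraries, whereas the other 17 libraries together held 29 reads of the gene. The +N libraries had 78, 143 and 101 reads, which are 5.90, 4.73 and 8.77 CPM, against 2, 1 and 1 reads in the control libraries, which are 0.116, 0.0668 and 0.0708 CPM. The −N libraries had 0, 0 and 3 reads. With surplus glucose (+C) there were 0, 7 and 6 reads, and with reduced glucose (−C) 1, 0 and 0. With surplus phosphate (+P) there were 5 and 0 reads, and without phosphate salts (−P) 1, 1 and 1. All 3 libraries of +N lay above every library of the other media, and 6 of the 17 other libraries had no read of LbH12.

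The order of the media by mean level was +N (6.47 ± 2.08 CPM, SD), +C (0.344 ± 0.308 CPM), +P (0.214 ± 0.303 CPM), control (0.0846 ± 0.0275 CPM), −P (0.0742 ± 0.0171 CPM), −N (0.0515 ± 0.0893 CPM) and −C (0.0189 ± 0.0328 CPM). Only the first step of this order was wider than the spread of the libraries, with 4.73 CPM in the lowest +N library and 0.596 CPM in the highest +C library. From +C downwards, each medium overlapped with the next one, and the means of the last 4 media were below the floor of 3 reads in any library.

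**Figure D1:**
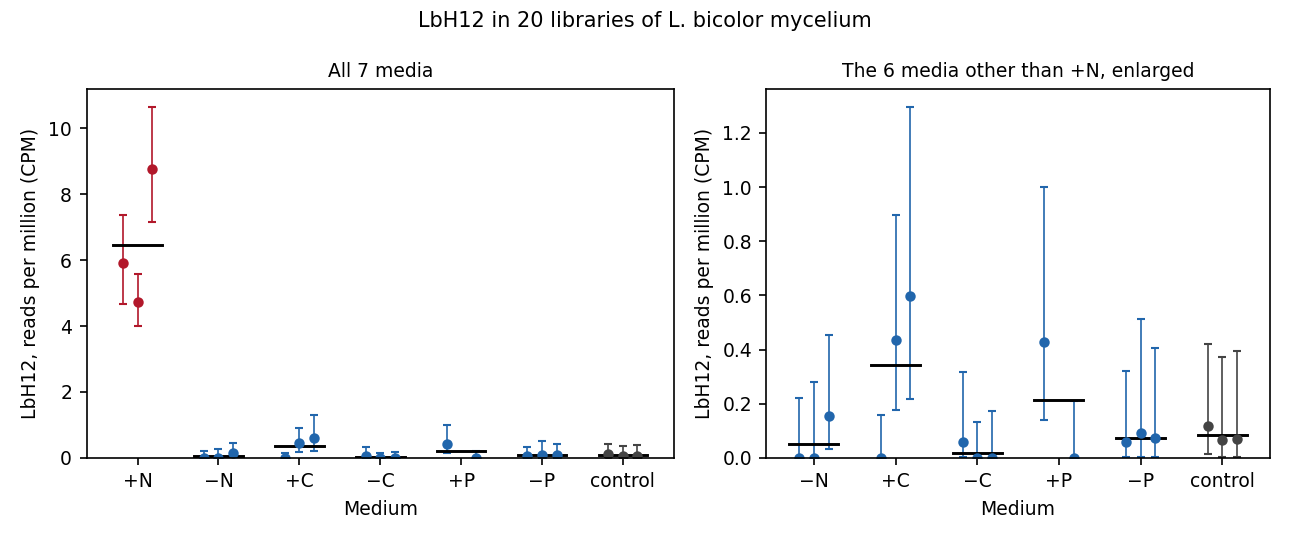
LbH12 level (CPM, linear axis) in each of the 20 libraries by medium, with the 6 media other than +N enlarged on the right; points are libraries, vertical bars 95% counting intervals and black lines the means of the media. The 3 +N libraries sit between 4.73 and 8.77 CPM, and no other library exceeds 0.596 CPM.

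Summed over libraries, LbH12 was 67.8-fold higher in +N than in control medium (322 against 4 reads, counting interval 26.2 to 250.5). The fitted log2 fold change was 6.10 ± 0.75 (SE). Against −N, the medium at the other end of the ammonium range, the ratio was 96.2 (32.6 to 469), with 322 reads in +N and 3 in −N. The ratio of +N to +C, the next medium in the order, was 22.3 (12.9 to 42.4). Against −C, with a single read, the ratio of 389.7 had an interval of 69.4 to 15438 and is poorly determined. The absence of ammonium salts left LbH12 at 0.705 times the control level (0.103 to 4.17, 3 against 4 reads), an interval that includes both a loss and a gain, so that a difference was not detectable at this depth. The interval of the ratio to control also included 1 for −C (0.174, 0.00353 to 1.76), −P (0.829, 0.121 to 4.90), +P (1.99, 0.428 to 10.03) and +C (3.04, 0.939 to 12.8).

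Within +N the gene varied more than its depth alone gives. The highest +N library had 1.85 times the CPM of the lowest, and the coefficient of variation was 32.1%, against 9.95% for counting error and a common coefficient between replicates of 10.6% over all tested genes. LbH13, the hydrophobin gene nearest to LbH12 in pattern, varied by 14.2% over the same 3 libraries. Another hydrophobin gene, JGI.389286, varied by 5.44%, below its counting error of 19.9%. A coefficient from 3 libraries is thus imprecise. The +N library with the most reads in total, replicate 2 with 33.1 M reads, had the lowest LbH12 level, and replicate 3 with 11.5 M reads the highest. The part of depth in this difference was not tested.

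Even in +N, LbH12 was a gene of medium expression. Per transcript length, its deposited RPKM values (reads per kilobase of transcript and M reads) in the +N libraries were 17.5, 13.1 and 26.7, against 0.352, 0.204 and 0.198 in the control libraries. By mean RPKM in +N it held place 6332 of 14725 tested genes, with a median of 14.5 RPKM over these genes. Every +N library lay above every other library in 1364 of the tested genes (9.26%), and this separation by itself did not set LbH12 apart. The separation was wide, as the lowest +N library had 7.94 times the CPM of the highest other library, a ratio reached by 14 other tested genes.

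Among the media other than +N and control, LbH12 had 0 to 7 reads per library. It passed the expression filter of the fit over all genes only through the +N libraries and was removed when these were left out, so that its values in these media are described by their reads and no call is made for them.

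The widest of these differences was that between the glucose media. LbH12 had 13 reads in +C (0, 7 and 6 per library) and 1 read in −C (1, 0 and 0), a ratio of summed reads of 17.5 with a counting interval of 2.62 to 742. The fitted log2 fold change was 3.68 ± 1.34 (SE). Both groups include libraries with 0 reads and so overlap, and the interval does not cover the spread between libraries.

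The reads in −N and −C were 3 and 1 in sum, a ratio of 4.05 (0.325 to 213) with a fitted log2 fold change of 1.59 ± 1.74 (SE). All 3 reads of −N were in replicate 3, and without it the fitted value was -1.60. In +P and −P there were 5 and 3 reads, a ratio of 2.40 (0.467 to 15.4) with a fitted value of 1.23 ± 1.43. Here all 5 reads of +P were in replicate 1, and without that library the value was -3.44. Both comparisons therefore have no direction at this depth.

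The hydrophobin family of the fungus was listed from symbols of the RefSeq table and from the annotation tables of the study, which gave 16 genes. A row in the libraries was found for 12 of them, LbH12 included, and LbH2, LbH3, LbH5 and LbH7 were not analysed here. Of the 11 others, 9 passed the expression filter. LbH10 had 0 to 4 reads and JGI.399287 had 0 to 3 reads in any library, and neither was tested. Genes with no symbol are written with JGI and their protein number. JGI.389286, JGI.399287, JGI.399291 and JGI.624234 entered only by the study's annotation, as hydrophobin or with the Gene Ontology term structural constituent of cell wall.

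The share of LbH12 in the family is likewise a description, since its level in +N chose the gene. Among the 12 genes with values, LbH12 was a marginal member outside +N and a major one in it. It took 18.6% of the hydrophobin reads in +N (322 of 1733, 95% Clopper-Pearson interval 16.8 to 20.5), against 0.858% in control medium (4 of 466, 0.234 to 2.18). Among single +N libraries the share was 20.1%, 15.1% and 25.3%. In the other media it was 0.554% (−N), 2.29% (+C), 0.144% (−C), 1.33% (+P) and 0.721% (−P). Per transcript length, the summed level of the 12 genes was 83.3 RPKM in +N and 21.0 RPKM in control medium, with 25.8 in −N, 27.2 in +C, 25.0 in −C, 28.8 in +P and 21.0 in −P. LbH12 accounted for 19.1 RPKM of this sum in +N, against 0.251 RPKM in control medium. LbH13 gave 41.1 RPKM in +N, against 2.80 RPKM in control medium. With surplus ammonium, LbH12 and LbH13 thus held most of the summed level of the 12 genes.

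The other members were tested against control with edgeR's quasi-likelihood F-test, and a gene was called at an adjusted p under 0.05 (Benjamini-Hochberg, over all 14725 tested genes). In +N over control, 2 of the 9 other tested hydrophobins were called, both higher (LbH13 and JGI.389286), where 29.8% of all tested genes were called and 14.1% were called higher. A share of 2 in 9 is near that background and is not a result about the family. The median log2 fold change of the 9 genes was 0.40, against -0.01 over all tested genes.

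LbH13 had 156, 449 and 179 reads in the +N libraries, against 18, 13 and 13 in the control libraries. Its level was 14.1 ± 2.00 CPM in +N and 0.945 ± 0.0922 CPM in control medium (SD, n = 3 in both), and the fitted log2 difference was 3.88 ± 0.25 (SE; edgeR adjusted p = 1.01e-10). The groups did not overlap. The study itself lists LbH13 among genes specific to surplus ammonium on these samples, so that its direction is no independent evidence.

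JGI.389286 had 23, 51 and 18 reads in the +N libraries, against 16, 6 and 6 in the control libraries. It averaged 1.66 ± 0.0905 CPM in +N and 0.585 ± 0.299 CPM in control medium, without overlap, with a log2 fold change of 1.47 ± 0.53 (edgeR adjusted p = 0.0391). This call was lost without control replicate 2 or 3 or any of the 3 +N replicates (adjusted p between 0.0594 and 0.130) and with a replicate block (0.0563). LbH9 had 3, 24 and 5 reads in +N and 2, 1 and 2 in control medium and missed the threshold (log2 fold change 2.23 ± 0.86, edgeR adjusted p = 0.0552). For the 6 remaining tested members, LbH1, LbH8, LbH11, LbH14, JGI.399291 and JGI.624234, the log2 fold change lay between -0.90 and 0.53.

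In −N, 1 of 9 hydrophobins was called, and it was lower, where 31.7% of all tested genes were called and 17% were lower. This was LbH14, at 0.220 ± 0.226 CPM in −N and 1.18 ± 0.191 CPM in control medium, a log2 fold change of -2.37 ± 0.56 (edgeR adjusted p = 0.00268). At an unadjusted p under 0.05 there were 3 of 9 hydrophobins, beside 6041 of the 14725 tested genes. LbH14 was 1 of these, and the others were higher in −N without a call. They were JGI.399291 (log2 fold change 1.05 ± 0.41, edgeR adjusted p = 0.0570) and LbH1 (0.60 ± 0.25, edgeR adjusted p = 0.0728). The names of all 3 −N libraries carry a letter i, whose meaning is not given. Elsewhere only control replicate 1 and −P replicate 3 carry it. A difference that goes with this letter cannot be fully told apart from one of −N, for LbH14 and for all genes. With a term for the letter, the log2 fold change of LbH14 was -2.08 (edgeR adjusted p = 0.0271). In −C, 2 of 9 were called, where 37.6% of all tested genes were called, 18.2% higher and 19.4% lower. LbH14 was lower in −C (log2 fold change -1.86 ± 0.50, adjusted p = 0.00554), and LbH1 was higher, at 2.99 ± 0.327 CPM in −C and 1.65 ± 0.479 CPM in control medium (log2 fold change 0.86 ± 0.24, edgeR adjusted p = 0.00782). The call of LbH1 was lost without control replicate 1 (adjusted p = 0.0517).

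In +C, 1 of 9 hydrophobins was called, higher, where 9.05% of all tested genes were called and 4.29% were higher, and it was again LbH13. It had 35, 29 and 26 reads in the +C libraries, against 18, 13 and 13 in the control libraries, a log2 fold change of 0.98 ± 0.29 (edgeR adjusted p = 0.0354). This call was lost without any single control replicate or without +C replicate 2 or 3 (adjusted p between 0.0637 and 0.148). No hydrophobin was called by edgeR in +P, where 9.83% of all tested genes were called, with 2 of 9 at an unadjusted p under 0.05 and 1 of 9 called by DESeq2. None was called in −P either, where 0.0951% of all tested genes were, with 0 at an unadjusted p under 0.05 and 0 by DESeq2.

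**Figure D2:**
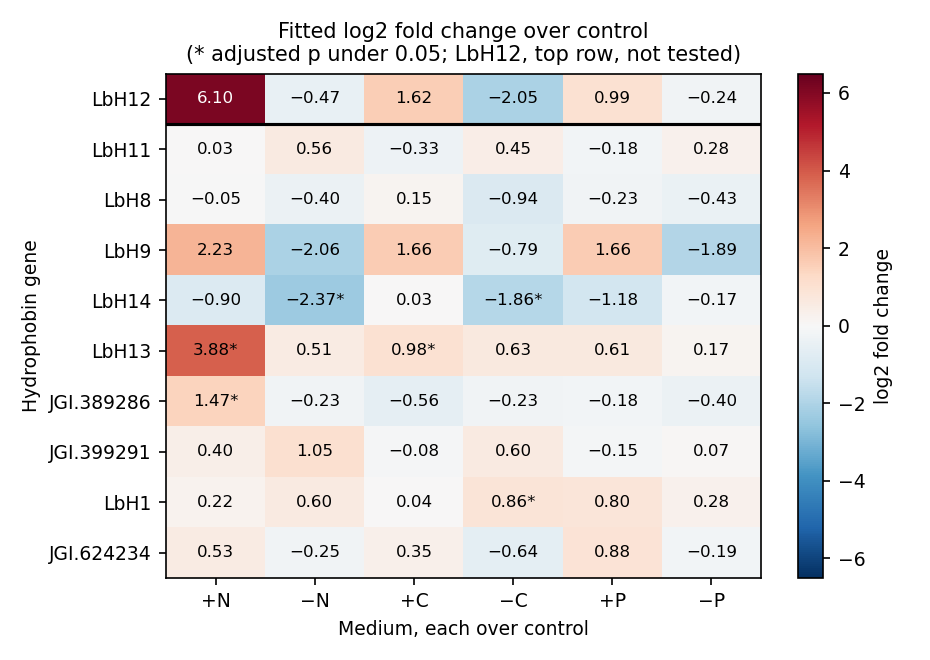
Fitted log2 fold change over control for LbH12 (top row, not tested) and the 9 other tested hydrophobin genes in each altered medium; asterisks mark an adjusted p under 0.05 in edgeR, colour gives direction and size. The largest values are those of LbH12 (6.10) and LbH13 (3.88) in +N, and the called values in −N and −C belong to LbH14 and LbH1.

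LbH12 and LbH13, whose pattern was the nearest to it in the family, stand near each other in the RefSeq gene table and have transcripts of the same length, 330 bases as obtained from the deposited values. In the order of that table, LbH12 is followed by JGI.335057 and then by LbH13, and preceded by JGI.241531 and JGI.335053. JGI.241531 was not analysed here. That table belongs to an older assembly than the transcripts used for the alignment, and no coordinates are given.

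Of the 3 neighbours with values, only LbH13 was called in +N over control. JGI.335057, the gene between LbH12 and LbH13, had 10, 10 and 6 reads in the +N libraries, against 8, 5 and 5 in the control libraries, with overlapping levels (log2 fold change 0.37 ± 0.69, edgeR adjusted p = 0.743). JGI.335053 had 42, 131 and 46 reads in the +N libraries, against 58, 56 and 63 in the control libraries, which is 3.84 ± 0.596 CPM in +N and 3.86 ± 0.552 CPM in control medium (log2 fold change 0.01 ± 0.21, edgeR adjusted p = 0.972). The high level in +N was thus not shared by the gene that separates the pair of hydrophobins in that table.

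The share of LbH12 in the reads of this pair is given as a description, since the +N and control values chose the gene. In +N it held 29.1% of the reads of LbH12 and LbH13 together (322 of 1106, 95% Clopper-Pearson interval 26.4 to 31.9), against 8.33% in control medium (4 of 48, 2.32 to 20.0). In +C the libraries were at 0%, 19.4% and 18.8%, and in −C at 3.12%, 0% and 0%, so that both media overlap at 0. In +P, replicate 1 was at 27.8% (5 of 18 reads, 9.69 to 53.5) and replicate 2 at 0%. The share in +P replicate 1 thus lay within the range of the +N libraries, on few reads. These intervals do not cover the spread between libraries. Among the +N libraries, the share was 33.3%, 24.2% and 36.1%, with an interval of 20.8 to 27.8 in replicate 2 and of 30.4 to 42.0 in replicate 3. Whether reads of 1 gene were counted for the other was not tested, as the sequences were not used here.

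**Figure D3:**
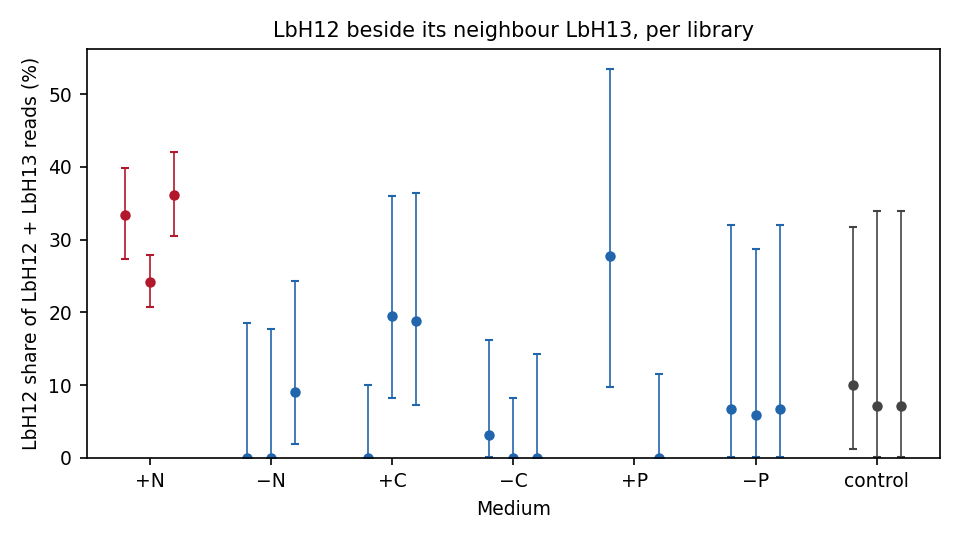
Share of LbH12 in the summed reads of LbH12 and LbH13 (%) in each library by medium, with 95% Clopper-Pearson intervals as vertical bars. The +N libraries sit between 24.2% and 36.1%, the control libraries between 7.14% and 10%, and libraries without a read of LbH12 at 0. The +P replicate 1 library, with 5 of 18 reads, sits at 27.8%, within the range of +N.

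The genes whose pattern was most like that of LbH12 were taken as the 10 tested genes with the highest Pearson correlation with it over the 20 libraries, on log2 CPM. The coefficients ranged from 0.940 to 0.964. They describe libraries that share media, and since LbH12 was high in 3 libraries and near 0 in the rest, they rest on the contrast of +N with the other media. Over the 17 libraries outside +N, where LbH12 had 0 to 7 reads, the coefficients of the same genes lay between 0.54 and 0.79. The genes were chosen on all 20 libraries, these 17 included, and other genes were not set beside them. The coefficients outside +N are therefore no separate evidence of likeness.

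The gene that came closest to LbH12 in level as well was JGI.596686, annotated as a mycorrhiza-induced small secreted protein of unknown function. It had 73 to 187 reads per +N library and 0 to 4 reads in any other, with 6.28 ± 0.804 CPM in +N and 0.0624 ± 0.0586 CPM in control medium. JGI.239749, a glycoside hydrolase of family GH24, which would cleave sugar chains, had 110.8 ± 13.1 CPM in +N and 3.71 ± 0.35 CPM in control medium, so that its control level was 3.35% of that in +N, compared with 1.31% for LbH12. The remaining genes kept a larger part of their level outside +N. JGI.392631, a cytochrome P450 and first in the order of likeness, was at 38.6 ± 3.01 CPM in +N and 5.27 ± 0.647 CPM in control medium. JGI.704867, annotated with sugar:hydrogen symporter activity, the coupled uptake of sugar and protons, was at 1338 ± 27.7 CPM in +N and 183.9 ± 10.7 CPM in control medium.

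The other 6 were JGI.697183 of unknown function (73.9 CPM in +N, 10.4 CPM in control medium), JGI.248522 without an annotation (70.5 CPM in +N, 28.0 CPM in control medium), JGI.584757, an acetylglucosaminyltransferase (45.0 CPM in +N, 13.2 CPM in control medium), JGI.623406, an RNA-binding protein with Pumilio repeats (74.6 CPM in +N, 41.1 CPM in control medium), JGI.694359, annotated with metabolism (33.5 CPM in +N, 13.5 CPM in control medium), and JGI.145569, a glucanase of family GH16 (49.0 CPM in +N, 12.0 CPM in control medium). In 10 of the 10 genes +C was the medium with the highest mean after +N, as it was for LbH12, whose pattern chose them. In several of them the lead of +C was within the SD. JGI.248522 had 29.6 ± 2.36 CPM in +C and 29.2 ± 1.91 CPM in −P. JGI.239749 had 5.23 ± 1.31 CPM in +C and 5.14 ± 0.618 CPM in +P. How many of all tested genes have +C in that place was not counted. LbH13 was at place 34 in the order of likeness (0.915), LbH9 at place 927 (0.691) and JGI.389286 at place 1334 (0.629). The list depended on the measure, since 4 of the 10 genes were shared when the correlation was taken over the means of the 7 media and 1 of 10 with Spearman's rank correlation.

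**Figure D4:**
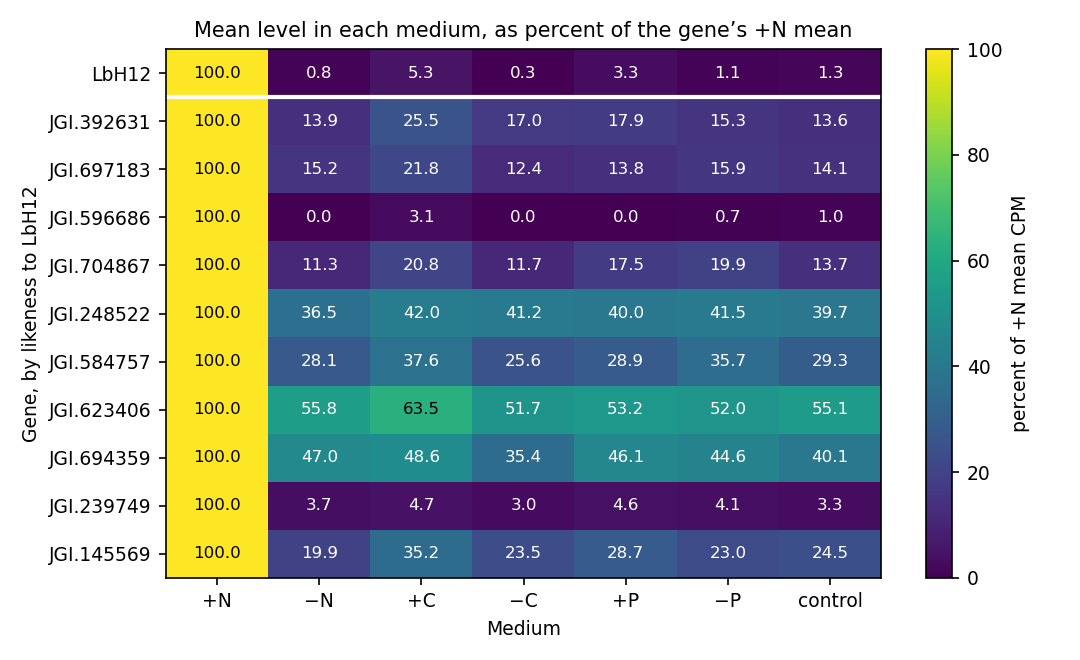
Mean CPM in each medium as a percentage of the gene's own mean in +N, for LbH12 (top row) and the 10 genes most like it, in order of likeness; each cell is 1 gene in 1 medium. LbH12, JGI.596686 and JGI.239749 are at 5.32% or less outside +N, and JGI.623406 stays at 51.7% or more in every medium.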

How the data were processed

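Mycelial RNA was sequenced in 20 libraries from 7 media, labelled as biological replicates. The authors trimmed the reads, used CLC Genomics Workbench for alignment against the JGI v2 transcripts and deposited raw read counts per gene model. They also deposited RPKM values, scaled by transcript length and library size, used here for levels per length and for transcript length. The labels name DESeq2 among the tools. The sources do not say if counts are of unique or all mapped reads or made with regard to strand, so that counts of near-identical copies, overlapping and antisense genes are uncertain, LbH12 and LbH13 included.

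Counts were fitted with edgeR 4.0.16 in R 4.3.3 (TMM, default filter by medium, quasi-likelihood F-test) in one fit of all 20 libraries with a mean per medium. Of 23130 gene models 14725 were tested, p-values were adjusted over them, and an adjusted p under 0.05 was a call. Comparisons with control share the control libraries. Ratios of summed reads have exact conditional 95% intervals, CPM of single libraries exact Poisson ones. On simulated counts for +N over control, 98 of 100 genes changed 2-fold and 100 of 100 changed 4-fold were recovered, with 7 false calls among 14370 genes. The changed genes were drawn only from well-expressed genes, and every gene was given the same spread between replicates. This recovery does not extend to genes with few reads, such as LbH12 outside +N and most of the hydrophobins. Alternatives were upper quartile and DESeq2 scaling, DESeq2 1.42.0, other filters, a replicate block, a term for the letter i that some library names carry, a fit of only the media compared, and leaving out each replicate.

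Named were LbH12, the hydrophobin genes (all counted, those called described), up to 2 neighbours on each side in the RefSeq V1.0 table, to which 6580 identifiers matched, and the 10 genes most correlated with LbH12 (log2 CPM, prior count 2). The members and lists were chosen with earlier results of these data known. No pair of libraries was identical.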

Additional observations from a re-analysis of the deposited data

How the results depend on the processing

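The fitted log2 fold change of LbH12 in +N over control lay between 6.08 and 6.27 in the 8 other settings and between 5.82 and 6.39 when single libraries were left out. The adjusted p over −N, −C, +C, −P and +P, 0.145 with edgeR, was 0.00964 with DESeq2, 0.0131 without +C replicate 1, lay between 0.104 and 0.189 in the other settings, and ranged from 0.0131 to 0.364 when single libraries were left out. The log2 fold change of +C over −C ranged from 3.11 to 5.28 without single libraries (adjusted p 0.00260 to 0.135, and 0.0955 or more without +C replicate 2 or 3 or −C replicate 2 or 3), that of −N over −C from -1.60 to 3.19, and that of +P over −P from -3.44 to 2.46. Where only the media compared entered the fit, LbH12 was removed by the expression filter in these tests and gave no value, and DESeq2 gave no adjusted p for +P over −P. No call is drawn from these p-values, as LbH12 passed the filter only through +N.

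The number of the 9 other hydrophobins called in +N was 1 with the replicate block and 1 to 3 without single libraries. In −N it was 2 with upper quartile scaling and 2 with a filter of 10 or more reads in all libraries of any medium, and 1 to 3 without single libraries. In +C it was 0 with a letter i term and 0 with only the media compared, and 0 to 1 without single libraries. In +P it was 1 with upper quartile scaling, 1 with DESeq2 and 0 to 1 without single libraries, and in −C 1 to 3 without single libraries. The cause was not tested. Of the 10 genes most like LbH12, 4 were shared with means of the 7 media, 1 with Spearman's correlation, 7 with a prior count of 0.5 and 6 to 10 without single libraries. LbH13 lost its call in +C with a letter i term (adjusted p = 0.0530) and with only the media compared (0.150).

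Over all genes, 14 were called in −P. It was 0 with upper quartile scaling, the replicate block or only the media compared, 22 with a letter i term, 63 with no filter, 113 with DESeq2, and 0 to 613 without single libraries, highest without −P replicate 1. In −N, where all libraries carry the letter i, its term gave 2884 calls, against 4673 without. With only the media compared, +C gave 660 calls, against 1332, and +P gave 964, against 1447. Without +P replicate 1 the count of +P was 702.

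Replicate numbers are shared between media. Deviations from the means of the media correlated between -0.378 and 0.301 for equal numbers and between -0.358 and 0.460 for unequal ones. A closer likeness of equal numbers was thus not seen, but so few libraries per medium cannot exclude a pairing. The main fit treated the libraries as unpaired. With the replicate block, LbH12 in +C over −C had a log2 value of 3.73 (adjusted p = 0.0316, 0.0353 without). The adjusted p over the 5 media was 0.113. Again, no call is drawn.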
